A study of Mus musculus with 40 samples.

Results

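The 8 genes described here are neural progenitor genes of the mouse embryo: the intermediate filament genes Nes and Vim, the SoxB1 factors Sox1, Sox2 and Sox3, the SoxB2 factor Sox21, and the radial glial and progenitor genes Fabp7 and Msi1. They are 8 of the 26411 genes in the count tables, matched by gene symbol, and they were chosen by name with the fold changes between genotypes already known. Their counts of calls and fold changes between E9.5 genotypes are therefore a description. Whole E9.5 embryos of 6 genotypes were sequenced, with 4 separate embryos each, picked by the study for a like outward appearance. WT embryos carried no mutant allele of either gene. Kat6a-/- embryos were homozygous for the cfd allele of Kat6a, a null allele that lacks part of the gene, and Kat6b-/- embryos were homozygous for the dec allele of Kat6b, also a null allele. Kat6aE/E embryos were homozygous for G656E in the acetyltransferase domain of KAT6A, Kat6bE/E embryos for G577E in that of KAT6B, and Kat6aE/E;Kat6bE/E embryos for both. All mutations were germline alleles on a C57BL/6 background, present in every cell. A second data set held hematopoietic progenitors (LSK cells, sorted as negative for lineage markers and positive for SCA-1 and c-KIT) from E14.5 fetal liver of WT, Kat6aE/E, Kat6bE/E and Kat6aE/E;Kat6bE/E fetuses, again with 4 per genotype.

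KAT6A and KAT6B are histone acetyltransferases of the MYST family that act within multi-subunit complexes at active genes. In the neural tube, SoxB1 proteins keep cells in a dividing progenitor state, whereas Sox21 is a repressor that works against them and favors neuronal differentiation. Nestin, the product of Nes, co-assembles with vimentin into the cytoplasmic filaments of neuroepithelial cells, and vimentin is also abundant in mesenchyme and endothelium. Fabp7 encodes a brain fatty acid-binding protein of radial glia, and Msi1 encodes an RNA-binding protein of neural stem cells.

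Nes lies on chromosome 3 (chr3:87878385-87887758, plus strand, 4 exons in the canonical transcript), Sox2 on the same chromosome (chr3:34704554-34706610, plus strand, 1 exon) and Vim on chromosome 2 (chr2:13578738-13587639, plus strand, 9 exons), all on GRCm39. Sox1 (chr8:12445295-12450126, plus strand), Sox3 (chrX:59934972-59937036, minus strand) and Sox21 (chr14:118470644-118474442, minus strand) each have 1 exon, Fabp7 (chr10:57660956-57664554, plus strand) has 3 and Msi1 (chr5:115567419-115593757, plus strand) has 15. The library kit did not keep strand, so reads of a gene could not be separated from those of an antisense partner. Of the exon bases of Sox2, 59.9% are also exonic in the antisense lncRNA gene Gm64654. The share was 20.2% for Sox21 with Sox21os1, 17.5% for Sox3 with Gm14662 and 12.3% for Vim with Gm54102, whereas no annotated gene overlapped Nes.

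The proximal promoters are shown because 4 SoxB genes and both filament genes had lower levels in the same mutant, and because SoxB proteins bind a short core sequence. Each line gives the 150 bases that lie upstream of both the RefSeq and the GENCODE start, taken from the RefSeq promoter table and placed on GRCm39 by an exact match found once on the chromosome (Nes, chr3:87878235-87878384, plus strand; Sox2, chr3:34703994-34704143, plus strand; Sox21, chr14:118474443-118474592, minus strand; Fabp7, chr10:57660806-57660955, plus strand). Capitals mark a SOX core (ACAAT or ATTGT) or a CCAAT box (CCAAT or ATTGG), searched on both strands.
Nes: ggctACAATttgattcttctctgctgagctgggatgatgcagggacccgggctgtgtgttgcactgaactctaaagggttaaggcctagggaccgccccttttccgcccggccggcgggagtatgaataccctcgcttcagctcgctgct
Sox2: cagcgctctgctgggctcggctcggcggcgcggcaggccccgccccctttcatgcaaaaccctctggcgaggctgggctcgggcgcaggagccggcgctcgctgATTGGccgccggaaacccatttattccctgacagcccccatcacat
Sox21: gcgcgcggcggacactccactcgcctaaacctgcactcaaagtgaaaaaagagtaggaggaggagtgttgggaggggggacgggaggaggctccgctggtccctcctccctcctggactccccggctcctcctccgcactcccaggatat
Fabp7: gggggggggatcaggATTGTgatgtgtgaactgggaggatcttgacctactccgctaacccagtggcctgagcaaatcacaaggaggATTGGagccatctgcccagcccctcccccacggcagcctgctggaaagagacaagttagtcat

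A SOX core stood in the windows of Nes and Fabp7 and a CCAAT box in those of Sox2 and Fabp7, while the Sox21 window held neither. Over all 32851 promoters of the table, 17.4% of windows of this length held the SOX core and 24.5% the CCAAT box. None of the 4 windows held an octamer (ATGCAAAT, 0.998% of promoters), a TATA box (TATAAA, 7.57%) or the E-box CAGCTG (8.39%). The windows had 57.3% to 69.3% GC, against a median of 54% over all promoters. Nes had 8 CpG, Sox2 15, Sox21 9 and Fabp7 2, against a median of 4. These matches are descriptions of the letters only. For Vim and Sox1 the table's window overlaps the transcribed part of the GENCODE gene and is not shown, and Sox3 and Msi1 had no entry.

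The E9.5 libraries held 8401990 to 23339359 counts, and 14183 protein-coding genes outside the Y chromosome passed the filter on low counts, among them all 8 progenitor genes. Counts over the whole Kat6a gene averaged 176 ± 8.79 CPM (counts scaled to the library size) in WT and 166 ± 4.66 in Kat6a-/- embryos (SD, n = 4). Kat6b averaged 40.5 ± 2.51 CPM in WT and 54.5 ± 2.75 in Kat6b-/-. The limma fit given below called Kat6b higher in Kat6b-/- than in WT (log2 fold change 0.41, SE 0.065, FDR = 0.0044). These whole-gene counts thus did not check the null genotypes. Although the study describes male embryos, 3 of the 24 E9.5 libraries (replicate 2 of Kat6a-/- and replicates 2 and 3 of Kat6b-/-) held 525.5 to 739 CPM of Xist and at most 0.199 CPM of Ddx3y, while the other 21 held at most 0.507 CPM of Xist and at least 39.7 CPM of Ddx3y. Sox3 is X-linked, and results that move are given with and without these libraries.

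In WT embryos the members spanned a wide range of levels per length. Vim was highest, at 370 ± 41.3 RPKM (CPM per kilobase of gene length, SD, n = 4), followed by Msi1 at 85.5 ± 3.22, Sox2 at 69.5 ± 4.69, Nes at 62.7 ± 4.68 and Sox3 at 52.2 ± 2.22 RPKM. Fabp7 (28.9 ± 6.13 RPKM), Sox1 (19.0 ± 1.14) and Sox21 (10.4 ± 0.81) were lower. Among neighbors in this order, Sox2 and Nes were the pair whose means ± SD overlapped, and Vim stood far above the rest. The bulk embryo mixes neural and other tissues, so fewer progenitor cells and less RNA per progenitor cell cannot be told apart in any comparison of genotypes.

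Nes had the lowest levels in Kat6a-/- embryos. In replicates 1 to 4 it was measured at 381, 408, 402 and 345 CPM in WT and at 237, 291, 244 and 242 CPM in Kat6a-/-, so every Kat6a-/- embryo lay below every WT embryo. The Kat6b-/- embryos had 266, 306, 357 and 272 CPM, and the highest of these reached into the WT range. Nes stood at 461, 407, 349 and 394 CPM in Kat6aE/E, at 347, 353, 422 and 312 CPM in Kat6bE/E, and at 286, 300.3, 320 and 331 CPM in Kat6aE/E;Kat6bE/E. All 4 double mutants thus lay under the lowest WT embryo, and both single point mutants overlapped WT. With 4 surrogate variables and litter in the limma model, Nes was downregulated in Kat6a-/- by a log2 fold change of -0.53 (SE 0.077, FDR = 0.00246 after adjustment over all genes tested), a change of -30.5%.

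Vim was higher than Nes in CPM in every E9.5 library, with a smaller estimate in Kat6a-/-. It measured 706, 745, 692 and 570 CPM in WT, 564, 608, 577.3 and 555 CPM in Kat6a-/-, and 562, 537, 627 and 518 CPM in Kat6b-/-. Replicate 4 of WT was below 2 of the Kat6a-/- embryos, so the groups overlapped. The point mutants had 724, 806, 692 and 628 CPM (Kat6aE/E), 677, 692, 640 and 612 CPM (Kat6bE/E) and 563, 685, 631 and 545 CPM (Kat6aE/E;Kat6bE/E), all overlapping WT. In the limma fit Vim was downregulated by -0.22 in Kat6a-/- (SE 0.042, FDR = 0.0051, a change of -14.3%) and by -0.19 in Kat6b-/- (SE 0.042, FDR = 0.0316, a change of -12.5%). The surrogate variables, which are estimated from the expression data, carried 82.0% of the variance of Vim between embryos of the same genotype, against 59.2% for Nes and a median of 45.2% over all genes tested. Without them neither Vim call remained in limma, with estimates of -0.22 (FDR = 0.230) in Kat6a-/- and -0.27 (FDR = 0.296) in Kat6b-/-.

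**Figure D1:**
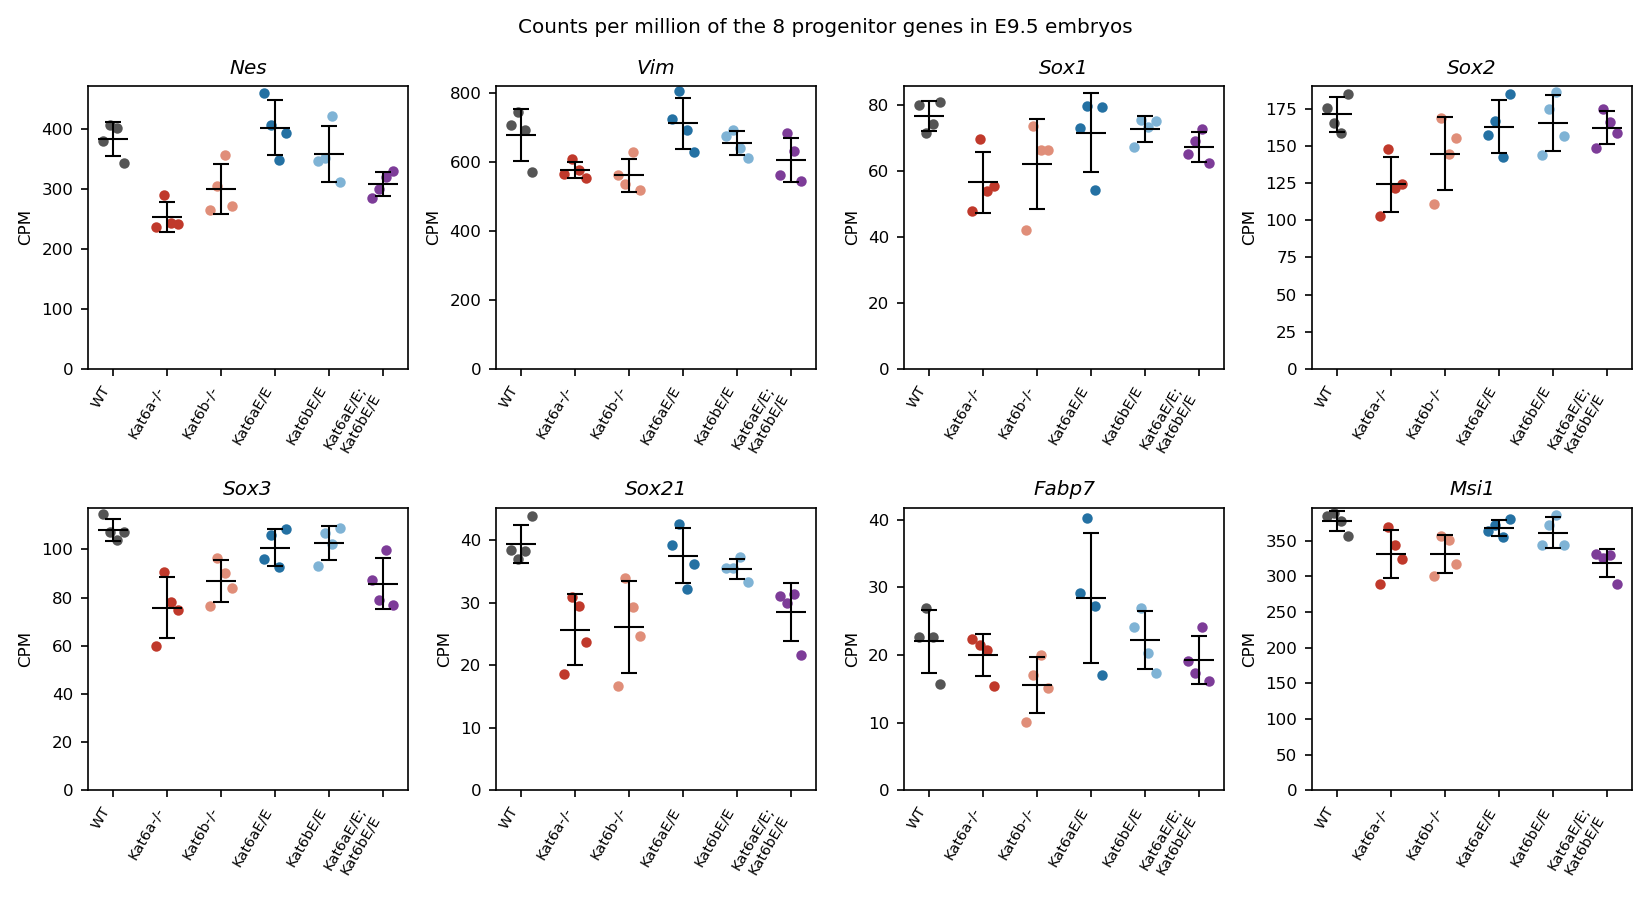
CPM (TMM-normalized library sizes, linear axes from 0) of the 8 genes in every E9.5 embryo of the 6 genotypes; points are embryos and bars the mean ± SD (n = 4). Nes in Kat6a-/- embryos sits between 237 and 291 CPM, below all WT embryos at 345 to 408 CPM, whereas Kat6aE/E and Kat6bE/E overlap WT in all 8 panels.

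The SoxB genes were also lower in Kat6a-/- embryos. Sox2, a core factor of neural progenitor identity, measured 176, 166, 159 and 186 CPM in WT and 103, 148, 122 and 125 CPM in Kat6a-/-. Sox3 measured 115, 107, 104 and 107 CPM in WT and 59.9, 90.5, 78.2 and 74.9 CPM in Kat6a-/-, and Sox21 38.5, 37.0, 38.2 and 43.9 CPM in WT and 18.5, 30.9, 29.5 and 23.8 CPM in Kat6a-/-. For all of these the Kat6a-/- values lay below the WT values without overlap, as they did for Sox1 (71.4 to 80.9 CPM in WT, 47.7 to 69.6 CPM in Kat6a-/-). Kat6a-/- replicate 2, a library with Xist, was the highest of its group for Nes, Vim, Msi1 and all 4 SoxB genes.

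Sox2 (-0.33, SE 0.069, FDR = 0.0151), Sox3 (-0.47, SE 0.084, FDR = 0.0059) and Sox21 (-0.52, SE 0.13, FDR = 0.0389) were downregulated in the limma fit. Sox1 had an estimate of the same size as Sox2 but a wider error (-0.33, SE 0.097, FDR = 0.0728). The 2 remaining genes gave smaller values, with Fabp7 at -0.24 (SE 0.16, FDR = 0.498) and Msi1 at -0.13 (SE 0.046, FDR = 0.120). Msi1 measured 385, 389, 378 and 357 CPM in WT and 289.7, 369, 344 and 324 CPM in Kat6a-/-, with 1 Kat6a-/- embryo inside the WT range, while Fabp7 at 15.7 to 27.0 CPM in WT and 15.5 to 22.3 CPM in Kat6a-/- overlapped widely.

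Counting members, 5 of 8 were called lower and none higher in Kat6a-/- against WT, where 2.64% of all genes tested were called (375 genes, of which 196 were lower). All 8 estimates were negative, with a median log2 fold change of -0.33, while 50.8% of all genes were negative and their median was 0.00. Since this contrast was known when the genes were chosen, nothing is read from that excess. Non-overlap with WT on the low side was seen for 5 of the 8 (Nes, Sox1, Sox2, Sox3 and Sox21), and for 6.49% of all genes tested. Leaving out replicate 1, 2 or 4 of WT left 3 members called each time (Nes, Vim and Sox3). Without surrogate variables 2 members stayed under the threshold, Nes and Sox3. Without the libraries that hold Xist, 6 were called, with Msi1 added.

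**Figure D2:**
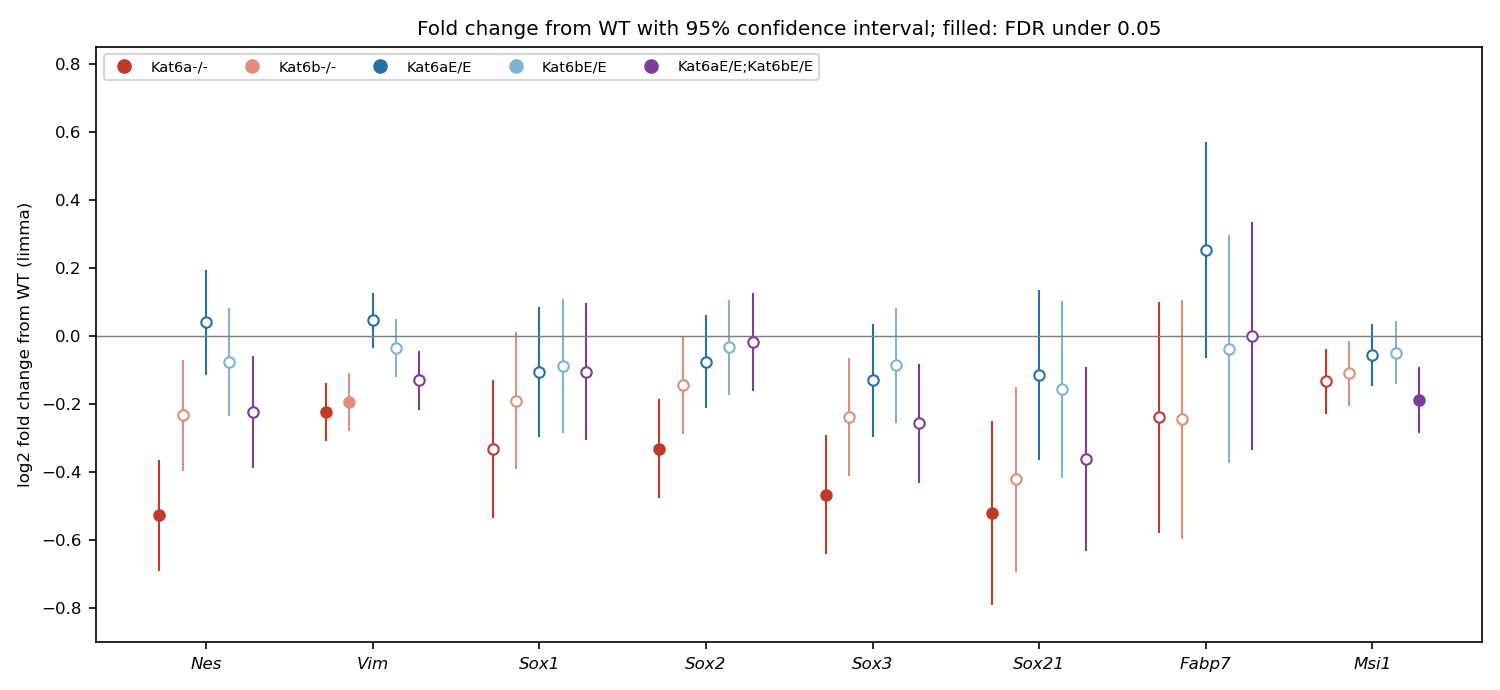
Log2 fold changes from WT of the 8 genes in the 5 mutant genotypes (limma, 4 surrogate variables, litter as block), with 95% confidence intervals; filled points have FDR under 0.05. In Kat6a-/- all 8 estimates lie below 0, from -0.53 for Nes to -0.13 for Msi1, and in Kat6aE/E the estimates of Nes, Vim and Fabp7 lie above 0.

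In Kat6b-/- embryos all 8 estimates were again negative, with a median of -0.21, but only Vim was called, where 0.508% of all genes tested were called. The largest estimate was that of Sox21, at -0.42 (SE 0.13, FDR = 0.161), from embryos at 16.7, 33.9, 29.3 and 24.6 CPM that all lay below WT. Sox3 at 76.3 to 96.5 CPM and Msi1 at 300.3 to 356 CPM were also below all WT embryos, as were 3.44% of all genes tested, with estimates of -0.24 (SE 0.083) and -0.11 (SE 0.046) that missed the threshold. Nes had -0.23 (SE 0.077, FDR = 0.205). Sox1, Sox2 and Fabp7 had estimates of -0.19, -0.14 and -0.24 with FDR of 0.417 to 0.602 in limma. The Vim call was lost, and no member was then called, without the libraries that hold Xist, which leaves 2 Kat6b-/- embryos, and when replicate 1 or 2 of WT or replicate 2, 3 or 4 of Kat6b-/- was left out. The estimate was then -0.24 without those libraries, and it ran from -0.24 to -0.18 with 1 library left out.

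No member was called in either single point mutant. In Kat6aE/E none had an unadjusted p under 0.05 in limma, where 0.275% of all genes were called. Nes (0.04, 95% interval -0.11 to 0.19), Vim (0.05, -0.04 to 0.13) and Fabp7 (0.25, -0.06 to 0.57) had positive estimates, and the other 5 were between -0.13 and -0.06. In Kat6bE/E no member and no other gene was called (0% of 14183 genes, with 626 at an unadjusted p under 0.05 in limma, no member among these, and 0 called by edgeR and DESeq2), and the members' estimates ran from -0.16 for Sox21 to -0.03 for Sox2. The 95% interval of Nes in Kat6bE/E ran from -0.23 to 0.08. Fitted directly against Kat6b-/-, Nes in Kat6bE/E had a log2 fold change of 0.16 (SE 0.078, FDR = 0.583 in limma).

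In Kat6aE/E;Kat6bE/E embryos Msi1 was the single member called, in a contrast where 2.91% of all genes were called. Msi1 measured 331, 325, 329 and 289.2 CPM, all below the WT embryos, with a log2 fold change of -0.19 (SE 0.047, FDR = 0.0287). Nes (-0.22, SE 0.078, FDR = 0.129), Vim (-0.13, SE 0.042, FDR = 0.0923), Sox3 (-0.26, SE 0.083, FDR = 0.0997) and Sox21 (-0.36, SE 0.13, FDR = 0.132) missed the threshold in limma. The levels of Nes, Sox3 (77.1 to 99.9 CPM) and Sox21 (21.7 to 31.4 CPM) were nevertheless below every WT embryo, as were 3.94% of all genes tested. Sox2 had an estimate of -0.02 (95% interval -0.16 to 0.13). Sox1 (-0.10, SE 0.096, 95% interval -0.31 to 0.10) and Fabp7 (0.00, SE 0.16, 95% interval -0.34 to 0.33) had wider intervals that also held 0. The levels of Sox2 overlapped WT, at 149 to 175 CPM against 159 to 186 CPM. The Msi1 call was lost when replicate 4 of the double mutant, the lowest for Msi1, was left out, and also when replicate 2 of the double mutant (Vim was then called) or replicate 1, 2 or 3 of WT was left out. The Msi1 estimate ran from -0.22 to -0.15 with 1 library left out. Without replicate 4 of WT or replicate 3 of the double mutant, Msi1 was called with 1 or 2 more members.

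The difference between the Kat6a point mutant and the Kat6a null was estimated directly. Nes was higher in Kat6aE/E than in Kat6a-/- by a log2 fold change of 0.57 (SE 0.08, FDR = 0.00247) and Vim by 0.27 (SE 0.043, FDR = 0.00214) in limma, 2 of 8 members in a contrast where 1.6% of all genes were called. The other 6 estimates were positive, among them Sox3 at 0.34 (SE 0.087, FDR = 0.0544), Sox2 at 0.26 (SE 0.072, FDR = 0.074) and Fabp7 at 0.49 (SE 0.16, FDR = 0.131). This contrast shares the Kat6a-/- embryos with the comparison against WT. Every Kat6aE/E embryo exceeded every Kat6a-/- embryo for both Nes (349 to 461 against 237 to 291 CPM) and Vim (628 to 806 against 555 to 608 CPM). The share of all genes that separate in this way was not computed for this contrast, so nothing is read from it.

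No member was called by limma in the other direct contrasts between mutants, whereas DESeq2 called Sox2 and Nes in the double mutant against Kat6a-/- and Nes between the nulls. In Kat6bE/E against Kat6b-/- (0.0353% of all genes called) the 8 estimates were positive, with Vim at 0.16 (SE 0.043, FDR = 0.228) and 1 member at an unadjusted p under 0.05 in limma. Against Kat6a-/-, the double mutant (0.00705% called) had 7 of 8 estimates above 0, with Sox2 at 0.31 (SE 0.073, FDR = 0.162) and Nes at 0.30 (SE 0.082, FDR = 0.215), and 5 members at an unadjusted p under 0.05. Against Kat6aE/E (0.141% called) it had 7 of 8 below 0, with Nes at -0.26 (SE 0.083, FDR = 0.276) and Vim at -0.18 (SE 0.045, FDR = 0.141), and 3 members at an unadjusted p under 0.05.

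Compared with Kat6b-/- (0.212% called), the double mutant had estimates between -0.08 and 0.24, and none of its members had an unadjusted p under 0.05 in limma. Compared with Kat6bE/E (0.0282% called) the range was -0.21 to 0.04, with 2 members at an unadjusted p under 0.05. Between the nulls (1.64% called), Nes was lower in Kat6a-/- by a log2 difference of -0.29 (SE 0.079, FDR = 0.0678) and Vim by -0.03 (SE 0.042, FDR = 0.777), and 3 members had an unadjusted p under 0.05. The departure of the double mutant from the sum of both point mutants (0% called, with 910 genes at an unadjusted p under 0.05 in limma, 0 called by edgeR and 2 by DESeq2) was -0.19 for Nes (SE 0.11) and -0.14 for Vim (SE 0.061), with 1 member at an unadjusted p under 0.05. These contrasts share embryos with the comparisons against WT.

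Other neural progenitor genes were called in both directions in Kat6a-/-. Of 25 other progenitor genes, 6 were called lower and 2 higher, and 20 had negative estimates, with a median of -0.20. Notch1, the receptor that holds progenitors back from differentiation, was lower (-0.31, SE 0.057, FDR = 0.0041), as were the POU factor Pou3f3 (-0.55, SE 0.10, FDR = 0.0062) and the progenitor surface protein gene Prom1 (-0.21, SE 0.05, FDR = 0.0242). The zinc finger factor Zic1 was higher (0.28, SE 0.063, FDR = 0.021). These are the 4 with the smallest p-values of the 8 called. The count of 8 became 0 without surrogate variables, 2 or 3 without any 1 of the WT libraries, 4 without replicate 1 or 4 of Kat6a-/- and 5 without its replicate 3.

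In the other contrasts with WT, 0 of these 25 were called in Kat6b-/-, Kat6aE/E and Kat6bE/E by limma (20, 18 and 16 had negative estimates), and 2 of 25 in Kat6aE/E;Kat6bE/E. There Notch1 was lower (-0.27, SE 0.058, FDR = 0.0144) and Hes1, a Notch target that represses neuronal genes, was higher (0.34, SE 0.069, FDR = 0.01). Neither was called without surrogate variables, without replicate 2 of WT or without replicate 2 of the double mutant, and 1 of them without replicate 3 of WT. Of 12 other Sox genes tested, none was called by limma in any contrast with WT, and all 12 estimates were negative in Kat6a-/- with a median of -0.15 (2 at an unadjusted p under 0.05). In that contrast 2 were called without the libraries that hold Xist or without replicate 2 of Kat6a-/-, and in the double mutant (5 at an unadjusted p under 0.05) 1 was called with DESeq2, without the litter block or without the libraries that hold Xist.

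Intermediate filament genes outside the member list did not share a direction. In Kat6a-/-, the neuronal filament gene Ina was lower (-0.61, SE 0.16, FDR = 0.043), while the epithelial keratin genes Krt7 (0.63, SE 0.14, FDR = 0.0271) and Krt18 (0.36, SE 0.084, FDR = 0.0286) were higher. The remaining 14 of the 17 tested were not called, and 8 of the 17 estimates were negative. The count of 3 became 0 without replicate 2 or 3 of WT, 1 without surrogate variables, without replicate 1 of WT or without replicate 1 of Kat6a-/-, and 5 with DESeq2 or without replicate 4 of Kat6a-/-. In the double mutant Krt18 was called (0.40, SE 0.083, FDR = 0.0145), also higher, and no filament gene was called there without surrogate variables or without replicate 2 or 3 of WT or replicate 4 of the double mutant. Of 3 other Fabp and Musashi genes tested, none was called in any contrast with WT in limma.

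**Figure D3:**
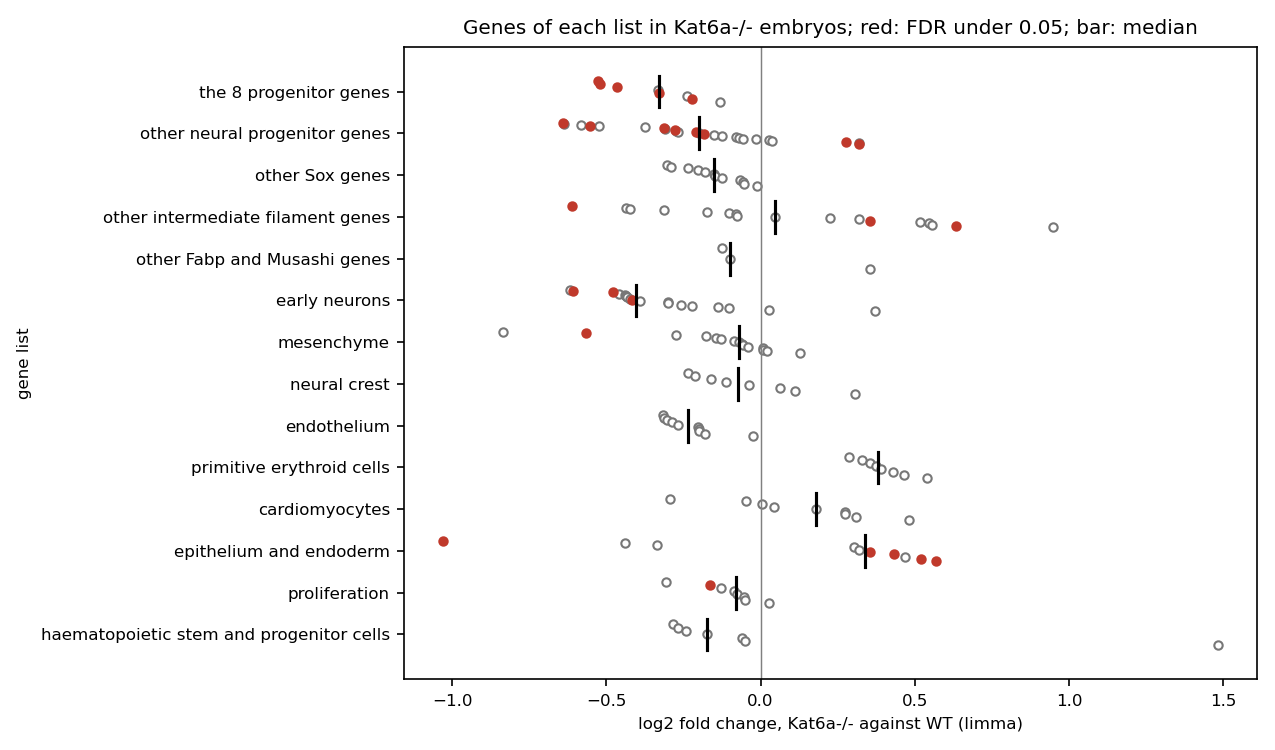
Log2 fold changes in Kat6a-/- against WT (limma) of the 8 genes, of related gene lists and of marker lists for other cell types; each point is a gene, red points have FDR under 0.05 and the bar is the list's median. The medians are -0.33 for the 8 progenitor genes, -0.20 for other progenitor genes, -0.41 for early neurons and 0.38 for primitive erythroid cells.

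Marker lists of other cell types were counted in Kat6a-/- against WT in the same limma fit. Early neuron genes had 16 of 18 negative estimates with a median of -0.41, and 3 were called lower, of which Crmp1 (-0.42, SE 0.053, FDR = 8.69e-05) encodes a protein of growing axons. Their summed level ranged from 395 to 708 CPM in WT and from 357 to 585 CPM in Kat6a-/-. All 10 endothelial genes had negative estimates (median -0.24, none called and 7 at an unadjusted p under 0.05, sums of 425 to 457 CPM in WT and 286 to 404 CPM in Kat6a-/-), and all 8 primitive erythroid genes had positive estimates (median 0.38, none called, sums of 3266 to 5041 CPM in WT and 3881 to 8759 CPM in Kat6a-/-). Of 10 epithelial and endodermal genes, 4 were called higher, among them Cldn7, Epcam and Krt18, and Foxa2 was called lower, with sums of 293 to 448 CPM in WT and 402 to 538 CPM in Kat6a-/-. Of 15 mesenchyme genes 1 was called, Foxc2 (-0.56, SE 0.097, FDR = 0.0035), and their sums overlapped (2329 to 2715 CPM in WT, 2089 to 2816 CPM in Kat6a-/-). Neural crest (8 genes) and cardiomyocyte (9 genes) lists held no call in limma, with medians of -0.07 and 0.18 and with 2 and 4 genes at an unadjusted p under 0.05. Of 7 hematopoietic stem and progenitor genes tested none was called (median -0.18, 3 at an unadjusted p under 0.05). Of 8 proliferation genes Mcm5 was called lower (-0.16, SE 0.032, FDR = 0.0059). The sums of the 8 did not overlap (3200 to 3280 CPM in WT, 2873 to 3048 CPM in Kat6a-/-). Nor did those of the endothelial list, the hematopoietic list (271 to 300 CPM in WT, 246 to 264 CPM in Kat6a-/-) or 2 related lists. These were the other progenitor genes (1870 to 1922 against 1536 to 1857 CPM) and the other Fabp and Musashi genes (313 to 352 against 294 to 309 CPM). How often a list separates in this way was not computed. The part of these tissues in the lower Nes and Vim levels was not tested.

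These counts changed with the libraries and the tool. The 3 early neuron calls became 0 without surrogate variables, 1 without replicate 1, 2 or 3 of WT or replicate 1 or 3 of Kat6a-/-, and 5 with DESeq2 or without the libraries that hold Xist. The 5 epithelial and endodermal calls became 1 without replicate 2 of WT, and 2 without replicate 1 or 3 of WT or replicate 1 of Kat6a-/-. Mesenchyme lost its call without the libraries that hold Xist, and proliferation without surrogate variables. Endothelial genes had 2 calls with DESeq2, with 6 surrogate variables or without replicate 4 of Kat6a-/-. Neural crest genes had 1 call with edgeR, with DESeq2, without the libraries that hold Xist or without replicate 2 of Kat6a-/-. Cardiomyocyte genes had 2 with DESeq2 or without replicate 2 of Kat6a-/-, and 5 without the libraries that hold Xist. Erythroid and hematopoietic stem and progenitor genes had 0 calls in every alternative run.

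In Kat6b-/- the early neuron list had 16 of 18 negative estimates with a median of -0.20, its single call being Tubb3, the neuronal tubulin gene (-0.41, SE 0.084, FDR = 0.0316). No early neuron gene was called there without surrogate variables, without the libraries that hold Xist, or when any 1 library other than replicate 1 of Kat6b-/- was left out. In Kat6aE/E, where Nes and Vim were not below WT, 13 of 18 early neuron estimates were positive with a median of 0.11 and none was called. In the double mutant the median was -0.16 and Crmp1 was called (-0.31, SE 0.054, FDR = 0.005). Other lists held calls there too. Of 8 proliferation genes 3 were lower (Ccnb1, Mcm2 and Mcm5), Foxc2 was lower, and Tnnt2 and Krt18 were higher. With 1 library left out, proliferation had 1 to 3 calls, mesenchyme (Foxc2) 0, cardiomyocytes (Tnnt2) 0 to 1 and epithelium (Krt18) 0 to 2. In Kat6aE/E the proliferation gene Pcna was called lower, with 0 to 1 calls when 1 library was left out. Primitive erythroid estimates were positive for all 8 genes in Kat6b-/- (median 0.57) and Kat6aE/E (median 0.22), with none called. These estimates are after the surrogate variables. The summed erythroid level had a median of 4814 CPM in WT (3266 to 5041) and 4325 CPM in Kat6b-/- (3148 to 11280). The median in Kat6b-/- was thus not above that in WT, while in Kat6aE/E it was 5714 CPM (5376 to 7153).

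Whether the progenitor genes moved with Nes and Vim was examined between embryos of the same genotype, after removal of each genotype's mean, so that the known differences between genotypes did not enter. Over the 24 embryos, 13 pairs were tested with permutations of embryos within genotypes (two-sided, 100000 permutations). Only Vim and Fabp7 passed adjustment over the 13 pairs (Pearson r = 0.70, permutation p = 0.00186, adjusted p = 0.0242, Spearman rho = 0.68, permutation p = 0.00245). Without the 2 embryos with the most extreme Vim levels r was 0.66 (permutation p = 0.00481), and the pair did not pass adjustment. It also did not pass with 1 embryo per litter and genotype. The Vim and Fabp7 pair did not pass adjustment when the 3 libraries with Xist, replicate 4 of WT, replicate 3 of Kat6b-/-, replicate 2 or 4 of Kat6aE/E or replicate 2 or 4 of Kat6bE/E were left out. Removal of the mean of each replicate number gave r = 0.34 (adjusted permutation p = 0.630), and removal of 4 surrogate variables gave r = 0.51 (adjusted permutation p = 0.136). Replicate 4 was below its genotype's mean for Vim in all 6 genotypes and for Fabp7 in 5 of 6. Nes and Vim themselves gave r = 0.43 (permutation p = 0.0471, adjusted p = 0.170, rho = 0.45, permutation p = 0.0509), and r = 0.41 without the 2 embryos farthest in Nes (permutation p = 0.0693).

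Nes gave r of 0.44 with Sox1, 0.42 with Sox2, 0.31 with Sox3, 0.39 with Sox21, 0.43 with Fabp7 and 0.56 with Msi1, with adjusted permutation p between 0.0937 and 0.247. Spearman rho for the same pairs ran from 0.30 to 0.54, with adjusted permutation p of 0.134 to 0.307. Vim gave r of 0.07 with Sox1, -0.04 with Sox2, 0.12 with Sox3, 0.21 with Sox21 and 0.38 with Msi1 (adjusted permutation p of 0.170 to 0.842, rho of -0.02 to 0.30 with adjusted permutation p of 0.274 to 0.939). Vim thus showed r close to 0 with the SoxB1 genes inside genotypes. Over all embryos without removal of the genotype means, Nes and Vim gave r = 0.74, which includes the differences between genotypes used in choosing the genes.

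As a description with no test, the SoxB genes and Msi1 varied together between embryos of a genotype. Their pairwise r ran from 0.66 (Sox1 and Msi1) to 0.88 (Sox1 and Sox2), with Sox3 and Msi1 at 0.80. The mean of the 25 other progenitor genes gave r of 0.90 with Sox1, 0.87 with Sox2, 0.71 with Sox3 0.86 with Sox21 and 0.80 with Msi1, against 0.59 with Nes and 0.29 with Vim. The mean of the 18 early neuron genes gave r of 0.89 with Vim, 0.66 with Nes and Fabp7, 0.60 with Msi1, 0.45 with Sox21, 0.37 with Sox3, 0.30 with Sox1 and 0.15 with Sox2. Lists of other kinds also gave large r. The other intermediate filament genes, among them the early neuron genes Nefl and Nefm, ran from -0.21 with Sox2 to 0.82 with Vim. Cardiomyocyte genes ran from -0.66 with Vim to -0.11 with Sox2, and mesenchyme genes from -0.58 with Sox1 to -0.09 with Vim. The remaining lists had r between -0.48 and 0.48. These values share the library, its depth and the mix of tissues in each embryo.

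**Figure D4:**
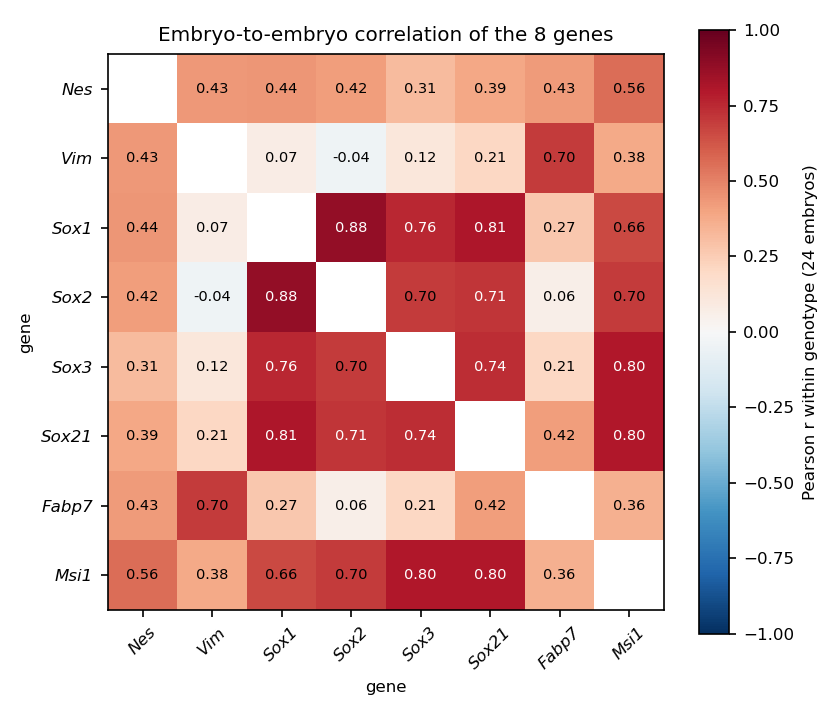
Pearson r of log2 CPM between the 8 genes over 24 E9.5 embryos after removal of each genotype's mean; color and number give r. The SoxB genes and Msi1 form a block of r between 0.66 and 0.88, Vim pairs with Fabp7 at 0.70, and Nes has r between 0.31 and 0.56 with all other members.

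Among all genes tested, those with the pattern most like Nes over the 24 libraries were Srgap3 (Pearson r = 0.93 over genotypes and 0.78 within them), Celsr2 (0.91 and 0.71) and Cacna1g (0.89 and 0.68). Those most like Vim were Ckb (0.96 and 0.95), Nefl (0.95 and 0.93) and Ina (0.94 and 0.91). Nefl and Ina are neuronal intermediate filament genes, and Ckb encodes brain-type creatine kinase. No member was among the 3 genes listed for Nes or the 3 listed for Vim. By r within genotypes, the other members stood between percentile 82.3 (Sox3) and 97.3 (Msi1) of all genes tested with Nes. With Vim they stood between percentile 45.4 (Sox2) and 98 (Fabp7). The median r over all genes was 0.014 with Nes and 8.3e-05 with Vim. These positions are a description with no test.

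In each of 3 litters a WT embryo had a mutant littermate. In the litter with a Kat6a-/- embryo, Nes was 381 CPM in WT and 291 CPM in the mutant (log2 ratio -0.39), Vim 706 and 608 CPM (-0.21) and Sox3 115 and 90.5 CPM (-0.34), and all 8 genes were lower in the mutant. In the litter with a Kat6b-/- embryo, Nes was 402 and 306 CPM (-0.40), Vim 692 and 537 CPM (-0.37) and Sox2 159 and 169 CPM (0.08). In the litter with a Kat6aE/E embryo, Nes was 408 and 461 CPM (0.18) and Vim 745 and 724 CPM (-0.04). Both null littermates are among the libraries with Xist. Littermates of the same genotype differed by log2 ratios of up to 0.22 for Nes and Vim, 0.28 for Sox2, 0.32 for Sox3, 0.41 for Sox21, 0.56 for Sox1 and Fabp7 and 0.16 for Msi1. The Kat6a-/- ratios lay outside that spread for Nes and Sox3 and inside it for the other 6 genes, Vim included. The Kat6b-/- ratios lay outside it for Nes and Vim, and the Kat6aE/E ratios of Nes and Vim inside it.

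In E14.5 LSK cells, which the choice of genes did not use, most members were at or near 0. Sox2 had 0 counts in all 16 libraries, which allows levels of up to 0.0507 to 0.244 CPM depending on depth (3 counts of the library's total, counting error only), and Sox1, Sox3, Sox21 and Fabp7 stayed at or under 0.513 CPM. Msi1 reached 1.95 CPM in 1 double-mutant library and was at or under 0.231 CPM in the other 15. Nes (10.4 to 42.2 CPM) and Vim (298 to 457 CPM) were the members that passed the filter. The hematopoietic progenitor markers Kit (351 to 552 CPM), Cd34 (349 to 844 CPM) and Flt3 (117 to 322 CPM) were present, and Ly6a, which encodes SCA-1, was at 0.937 to 10.3 CPM.

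Vim in LSK cells measured 419, 385, 391 and 322 CPM in WT and 451, 376, 411 and 457 CPM in Kat6aE/E, a log2 fold change of 0.22 (SE 0.066, limma FDR = 0.138) where 1.36% of 13071 genes were called. It measured 324, 298, 338 and 344 CPM in Kat6bE/E (-0.13, SE 0.08, FDR = 1.00, 0% of genes called, with 364 at an unadjusted p under 0.05 and 0 called by edgeR or DESeq2) and 360, 306, 358 and 314 CPM in Kat6aE/E;Kat6bE/E (0.00, SE 0.10, FDR = 0.998, 0% called, with 896 at an unadjusted p under 0.05, 1 called by edgeR and 91 by DESeq2), so all groups overlapped WT. Nes measured 42.2, 39.8, 37.4 and 22.9 CPM in WT, 29.7, 19.7, 31.8 and 26.8 CPM in Kat6aE/E, and 33.7, 10.4, 13.2 and 15.5 CPM in the double mutant, with log2 fold changes of -0.27 (SE 0.14, FDR = 0.442) and -0.11 (SE 0.21, FDR = 0.939) in limma. The latter is after the surrogate variables, since the mean was 35.6 CPM in WT and 18.2 CPM in the double mutant. Replicates 2 to 4 of the double mutant, all from 1 litter, were also low in Flt3 (117 to 151 CPM). Replicates 1 to 3 of WT shared another litter, so litter and genotype cannot be told apart in these means. In Kat6bE/E, Nes measured 41.7, 21.5, 23.5 and 38.5 CPM (0.22, SE 0.16, FDR = 1.00 in limma). Of the 16 LSK libraries, 5 held Xist.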

How the data were processed

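Read-pair counts per RefSeq gene, made by the authors with Rsubread align and featureCounts on mm39 without normalization, were deposited for each of 24 whole E9.5 embryos and 16 E14.5 LSK samples, 1 library per embryo or fetus. Library totals were 8401990 to 23339359 counts at E9.5 and 12270376 to 59216547 in LSK cells, with Fabp7 and Sox21 at the lowest counts of the members. Of 26411 genes, 26359 were matched to a gene table and 21030 were protein-coding. The protein-coding genes outside the Y chromosome went on to edgeR's filterByExpr.

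As in the study's methods, each stage was fitted as a whole with limma (3.58.1, voomLmFit, TMM, 4 surrogate variables, litter as a random effect, robust eBayes, in R 4.3.3), and FDR is the p-value adjusted by Benjamini-Hochberg across every gene tested. The correlation within litters was 0.107 at E9.5 (17 litters) and 0.331 in LSK cells (9 litters). CPM use TMM library sizes, RPKM also the gene length. Alternatives were 0 or 6 surrogate variables, no litter block, edgeR's quasi-likelihood test (4.0.16), DESeq2 (1.42.0), scaling by DESeq2 size factors, keeping genes with low counts, replicate number as a block, and leaving out each library. Leaving out the libraries with Xist, and repeating the alternatives for contrasts between mutants, were chosen after seeing the data. The scripts were tested on simulated data.

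The 8 genes and the 13 lists of other genes were chosen with earlier results of these data known. Named were the 8 genes, Kat6a and Kat6b, at most 4 genes with the smallest p-values per list and contrast among those with FDR under 0.05, and the 3 genes with the highest Pearson r with Nes and with Vim. Xist, Ddx3y and hematopoietic markers were named to check the samples.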

Additional observations from a re-analysis of the deposited data

Results flagged for a closer look

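Of 56 groups of 4 libraries checked with Dixon's ratio, 3 held a library far from the other 3, and chance alone flags about 1 group in 20. Nes in Kat6a-/- replicate 2 was the highest of its group at 291 CPM, with the others at 237 to 244 CPM. This library is among those with Xist and has a WT littermate. In Kat6aE/E;Kat6bE/E, replicate 4 was the lowest for Sox21 at 21.7 CPM, with the others at 30.0 to 31.4 CPM. The same embryo was the lowest for Msi1 at 289 CPM, with the others at 325 to 331 CPM.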

How the results depend on the processing

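In Kat6a-/- against WT 5 members were called with 4 surrogate variables and 2 with 0 (Nes and Sox3), and leaving out 1 library gave 3 to 5. In Kat6b-/- the count of 1 became 0 without surrogate variables, 2 with 6 (Nes and Vim), 2 with DESeq2 (Sox21 and Vim), 0 without the libraries with Xist, and 0 to 1 with 1 library left out. In Kat6aE/E;Kat6bE/E the count of 1 became 0 without surrogate variables, 3 with 6 (Msi1, Nes and Sox21), 3 with DESeq2 (Msi1, Nes and Sox3), and 0 to 3 with 1 library left out. Both single point mutants had 0 members called in every alternative run, edgeR and DESeq2 included. Across direct contrasts between mutants, 2 calls became 1 without surrogate variables (Nes, Kat6aE/E against Kat6a-/-), 5 with 6 surrogate variables, 5 without a filter, 5 with the replicate block, 4 without the libraries with Xist, 7 with DESeq2, and 2 to 5 with 1 library left out. The cause was not tested.

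Of the within-genotype pairs, 1 passed adjustment and 0 did after removal of 4 surrogate variables, without the 2 farthest libraries, with 1 embryo per litter and genotype, with the replicate block or without the libraries with Xist, and 0 to 2 with 1 library left out. For Nes and Vim r was -0.11 after removal of 4 surrogate variables and 0.32 to 0.52 with 1 library left out. The surrogate variables are estimated from the same differences between embryos of a genotype. Values of r after their removal therefore cannot decide whether the genes moved together. That removal also turned the sign of r for Nes with Sox1 (-0.0256), Sox2 (-0.0407), Sox3 (-0.148), Sox21 (-0.294) and Msi1 (-0.072), and for Vim with Sox2 (0.0303). The replicate block turned Vim with Sox3 (-0.0506), Sox21 (-0.135) and Msi1 (-0.086), and leaving out the libraries with Xist turned Vim with Sox1 (-0.0634) and Sox3 (-0.00277). With 1 library left out, r ran from -0.125 to 0.0741 for Vim with Sox2 and from -0.0142 to 0.170 for Vim with Sox1. In LSK cells the estimate of Vim in the double mutant was 0.00191 with DESeq2 size factors and -0.113 to 0.024 with 1 library left out.

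The labels do not say that a replicate number marks a shared batch, and the criterion for pairing (r over 0.1 in every same-numbered pair) was not met. Of 60 such pairs 17 correlated over 0.1 (r of -0.23 to 0.31), and 7 of 24 libraries correlated best with their own number. Of the 15 pairs among replicates 4, 14 were positive, and WT replicate 4 had r of 0.11 to 0.31 with its 5 mutant counterparts. The block moved no count of members called against WT by over 1.5 times, but in Kat6a-/- it added Sox1 and removed Sox21, with 5 called. Fabp7 and Sox21 had the fewest counts, at least 83 and 137 per E9.5 library, and the part of counting error in their spread was not tested.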
